A study of Homo sapiens with 6 samples.

Results

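The enzymes that attach fatty acids to proteins, and those that take palmitate off again, were followed in *LEADR*-depleted RT4 cells. The members were the protein coding genes of the ZDHHC family together with *LYPLA1*, *LYPLA2*, *LYPLAL1*, *PPT1*, *PPT2*, *HHAT*, *PORCN*, *NMT1* and *NMT2*, which made 33 of the 57905 genes in the count table. The group was selected on the measured fall of *LYPLA1* between these same libraries, so the values of the members between the groups are a description. Where a member is said to be called, the call is its row in the fit over all genes, given to describe it and not as evidence for the group. RT4 is a widely used line of bladder cancer cells derived from a papillary tumour, and all samples carried the WT genotype. Cells were transfected for 48 h with 100 pmol of a Scramble siRNA or of the LEADR siRNA, and RNA with poly(A) tails was sequenced from 3 samples in each group. The samples are called Scramble 1, 2 and 3 and LEADR-KD 1, 2 and 3. The knock-down rests on a single siRNA in a single cell line, and the study's methods speak of biological replicates without saying whether these were separate cultures, so p values reflect only the spread among these samples, part of which may be technical.

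S-palmitoylation joins palmitate to cysteines through a thioester bond, which holds soluble proteins on membranes and can be reversed. Enzymes with a DHHC (Asp-His-His-Cys) motif, encoded by the ZDHHC genes, add the lipid in the endoplasmic reticulum, the Golgi and the plasma membrane, and cytosolic acyl-protein thioesterases remove it, so that proteins such as HRAS and NRAS cycle between membranes. *PPT1* and *PPT2* encode lysosomal thioesterases, *HHAT* and *PORCN* encode acyltransferases of the secretory pathway for hedgehog and Wnt ligands, and *NMT1* and *NMT2* encode the enzymes that add myristate to glycines at protein N-termini.

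The LEADR siRNA and the places in the 3′ untranslated regions (UTRs) of the enzymes that match its seed are shown first, because the lowered enzymes are described against them. The listed strand of the siRNA, taken from the submitters' protocol and written 5′ to 3′ with bases 2 to 8 in capitals, is the first sequence. Seed here means these bases of the strand as listed, and which strand acts in cells was not tested. The other lines give 21 bases around the 7-base match ACCCAGT, the reverse complement of bases 2 to 8, for the tested enzymes whose longest annotated 3′ UTR held it. They were read from GENCODE transcripts on GRCh37, the build also known as hg19, on the strand of the gene, with the match in capitals.
LEADR siRNA, listed strand: aACUGGGUgcuuuauauagga
ZDHHC9, chrX:128940211-128940231, minus strand: ttggtctttagtcACCCAGTt
ZDHHC17, chr12:77247081-77247101, plus strand: gaaccaactataaACCCAGTt
NMT1, chr17:43185543-43185563, plus strand: cccaccctctgccACCCAGTc
ZDHHC18, chr1:27181713-27181733, plus strand: ctctgaatatgggACCCAGTg
HHAT, chr1:210762492-210762512, plus strand: gtggctacattccACCCAGTg
The windows of *ZDHHC9* and *ZDHHC17* could pair with 12 and 10 of the 21 bases of the listed strand, and those of *NMT1*, *ZDHHC18* and *HHAT* with 11, 13 and 11. A match of this kind is a description of letters in a transcript, not a site of action.

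The deposited counts summed to between 15706033 and 18960822 per library, and 14178 genes had enough counts to be tested. *MIR205HG*, the host gene of *LEADR*, had 511, 337 and 346 counts in Scramble and 113, 211 and 101 in LEADR-KD, and its log2 fold change was -1.47 with a standard error (SE) of 0.26, the groups not overlapping. Over the 16 alternatives of processing described below it ranged from -1.82 to -1.13, and the call of *MIR205HG* was not kept in every one. Its row does not separate the *LEADR* isoform from the other transcripts of the locus. Mitochondrial genes took 3.06% to 11.9% of the counts in Scramble and 4.79% to 10.8% in LEADR-KD, with the highest share in the library numbered 1 of each group. Of 13 urothelial or epithelial markers 12 reached a mean of 1 CPM, *KRT13* being the exception, and their summed level was 6847 to 7553 CPM in Scramble and 8228 to 8846 CPM in LEADR-KD. Of the fibroblast markers 2 of 7 reached 1 CPM, with *PDGFRA*, *PDGFRB*, *COL1A2* and *DCN* at 0 in every library and a sum of 26.4 to 32.1 against 18.4 to 25.7 CPM. The 5 leukocyte markers summed to at most 0.440 CPM, and of the 3 endothelial markers in the table only *VWF* reached 1 CPM, with sums of 6.98 to 10.2 against 2.55 to 4.46 CPM. The part of these markers and of the mitochondrial share in the results was not tested. In such bulk samples fewer cells of a type and less RNA per cell cannot be told apart.

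Of the 33 enzymes, 30 were tested and 3 (*ZDHHC15*, *ZDHHC19* and *ZDHHC22*) had 0 counts in all 6 libraries, which allows a level of up to 0.154 to 0.188 CPM per library (3 counts, counting error only). At an adjusted p under 0.05 in edgeR's quasi-likelihood test, 3 enzymes were lower in *LEADR*-depleted cells, namely *LYPLA1*, *ZDHHC9* and *ZDHHC17*, 0 were higher and 27 were not called. Over all tested genes 12.1% were lower, 12.2% were higher and 24.4% were called in either direction (1719 lower and 1736 higher, or 1553 and 1085 with library totals in place of TMM). As *LYPLA1* brought the list together, nothing is read from the count of 3. With a log2 fold change beyond 1 added, *LYPLA1* and *ZDHHC9* remained, beside 2.58% of all genes that were lower and 1.64% that were higher under that rule. The median log2 fold change was 0.03 over the 30 enzymes and -0.01 over all tested genes.

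*LYPLA1* (ENSG00000120992), which encodes acyl-protein thioesterase 1, a cytosolic enzyme that takes palmitate off proteins, had 3037, 3965 and 2740 counts in Scramble and 840, 899 and 846 in LEADR-KD. The LEADR-KD libraries lay close together and far below every Scramble library. In CPM, which are counts relative to the library total after TMM scaling (a trimmed mean of gene ratios), it went from 182 ± 20.1 (SD, n = 3) to 49.99 ± 2.40 (SD, n = 3). The log2 fold change was -1.86 (SE 0.10, 95% interval -2.08 to -1.65), which left 27.5% of the Scramble level. *LYPLA1P3*, a processed copy of the gene, held 6, 16 and 1 counts against 1, 1 and 0, and the copies *LYPLA1P1* and *LYPLA1P2* held 0, so reads assigned to annotated copies were few beside those of *LYPLA1*.

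*LYPLA2*, encoding acyl-protein thioesterase 2, the closest relative of *LYPLA1* in function, had 1011, 1281 and 1018 counts in Scramble and 928, 1009 and 1093 in LEADR-KD. The groups overlapped, and the log2 fold change of -0.08 had a 95% interval from -0.28 to 0.11. *LYPLAL1*, encoding a related hydrolase that prefers short acyl chains, had 209, 248 and 190 counts in Scramble and 128, 169 and 178 in LEADR-KD. All its LEADR-KD libraries were below all Scramble libraries, both in counts and in CPM (12.1 ± 0.71 against 9.13 ± 1.04, SD, n = 3). Its log2 fold change was -0.41 (SE 0.15), and it was not called. Among the enzymes *ZDHHC17* was the member nearest to the threshold on the inside, and *ZDHHC13* and *LYPLAL1* were the nearest on the outside.

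The make-up of this cytosolic group was compared on the FPKM scale, the authors' values per gene length and library. *LYPLA1*, *LYPLA2* and *LYPLAL1* together summed to 68.8, 77.1 and 65.7 FPKM in Scramble 1, 2 and 3 and to 40.5, 38.7 and 41.7 FPKM in LEADR-KD 1, 2 and 3. *LYPLA1* made 54.5% ± 1.73 of that sum in Scramble but 26.5% ± 1.76 in LEADR-KD (SD, n = 3). The level of *LYPLA1* was thus 1.37 times that of *LYPLA2* in Scramble and 0.402 times in LEADR-KD, and the order of these genes was turned in all 3 LEADR-KD libraries. These shares are of RNA, and no protein or enzyme activity was measured in these files.

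**Figure D1:**
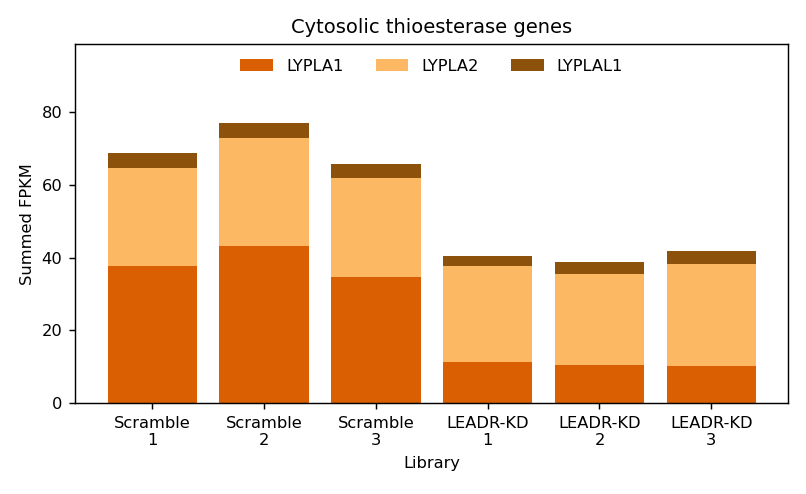
Stacked bars give the FPKM of the cytosolic thioesterase genes in each of the 6 libraries, with LYPLA1 at the base, LYPLA2 in the middle and LYPLAL1 on top. The Scramble bars reach 65.7 to 77.1 FPKM and the LEADR-KD bars 38.7 to 41.7 FPKM, with the LYPLA1 segment much shorter in LEADR-KD and the LYPLA2 segment of similar height throughout.

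The lysosomal thioesterases were not called. *PPT1*, whose loss causes an infantile form of neuronal ceroid lipofuscinosis, had 3556, 4426 and 3594 counts in Scramble and 3891, 3839 and 4148 in LEADR-KD. The groups overlapped, with a log2 fold change of 0.08 (95% interval -0.10 to 0.26). *PPT2* had 84, 127 and 108 counts against 84, 228 and 114, and its log2 fold change of 0.44 (95% interval -0.20 to 1.08) rested on LEADR-KD 2, which stood at 12.5 CPM while the other LEADR-KD libraries stood at 5.26 and 6.46 CPM. *PPT2* overlaps the readthrough gene *PPT2-EGFL8* (8, 5 and 5 against 2, 9 and 2 counts) and, on the opposite strand, *PRRT1*.

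Among the S-acyltransferases, 21 of the 24 ZDHHC genes were tested, of which *ZDHHC9* and *ZDHHC17* were lower and 19 were not called. *ZDHHC9* (ENSG00000188706, X chromosome from 128937264 to 128977885) encodes a Golgi enzyme that palmitoylates HRAS and NRAS together with its partner GOLGA7. It had 1011, 1124 and 972 counts in Scramble and 335, 428 and 480 in LEADR-KD. In CPM it was 59.5, 57.7 and 58.0 in Scramble and 21.0, 23.5 and 27.2 in LEADR-KD, so the Scramble libraries were almost equal and every LEADR-KD library was well below them. Its log2 fold change was -1.29 (SE 0.11, 95% interval -1.53 to -1.05), which left 41.0% of the Scramble level.

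*ZDHHC17* (ENSG00000186908, chromosome 12 from 77157368 to 77247476) encodes huntingtin-interacting protein 14, an ankyrin repeat enzyme of the Golgi that is best known from neurons. It had 398, 459 and 413 counts in Scramble and 283, 296 and 282 in LEADR-KD, or 23.9 ± 0.67 against 16.7 ± 0.94 CPM (SD, n = 3). The groups did not overlap, and the log2 fold change of -0.52 (SE 0.11, 95% interval -0.77 to -0.27) was far smaller in size than those of *LYPLA1* and *ZDHHC9*. Its call was lost in limma on log2(FPKM + 1) of all genes, low ones included, where the log2 fold change was -0.35.

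The other 19 tested ZDHHC genes had log2 fold changes between -0.56 and 0.28. *ZDHHC13*, the closest relative of *ZDHHC17*, had 671, 765 and 660 counts in Scramble and 721, 854 and 872 in LEADR-KD, which in CPM were 39.5, 39.3 and 39.4 against 45.2, 47.0 and 49.4. Its LEADR-KD libraries lay above every Scramble library on the CPM scale, with a log2 fold change of 0.26 (SE 0.09), and it was not called. *ZDHHC2*, *ZDHHC6* and *ZDHHC12* also had all LEADR-KD libraries above all Scramble libraries, with log2 fold changes of 0.28, 0.18 and 0.18. Over all 30 tested enzymes 4 did not overlap with LEADR-KD below and 4 with LEADR-KD above, against 19.9% of all tested genes in each direction, and 22 overlapped.

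The summed level of the ZDHHC genes was 252 ± 5.25 FPKM in Scramble against 260 ± 16.2 FPKM in LEADR-KD (SD, n = 3). *ZDHHC9* took 4.38% ± 0.13 of that sum in Scramble and 1.76% ± 0.33 in LEADR-KD, and *ZDHHC17* took 1.07% ± 0.05 and 0.727% ± 0.01 (SD, n = 3). Both lowered genes were thus small parts of the pool of transcripts for S-acyltransferases in RT4, and the sum without *ZDHHC9* was 241 ± 5.30 against 255 ± 16.7 FPKM (SD, n = 3). The larger SD in LEADR-KD went with *ZDHHC20*, at 55.3, 41.3 and 36.7 FPKM in LEADR-KD 1, 2 and 3.

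**Figure D2:**
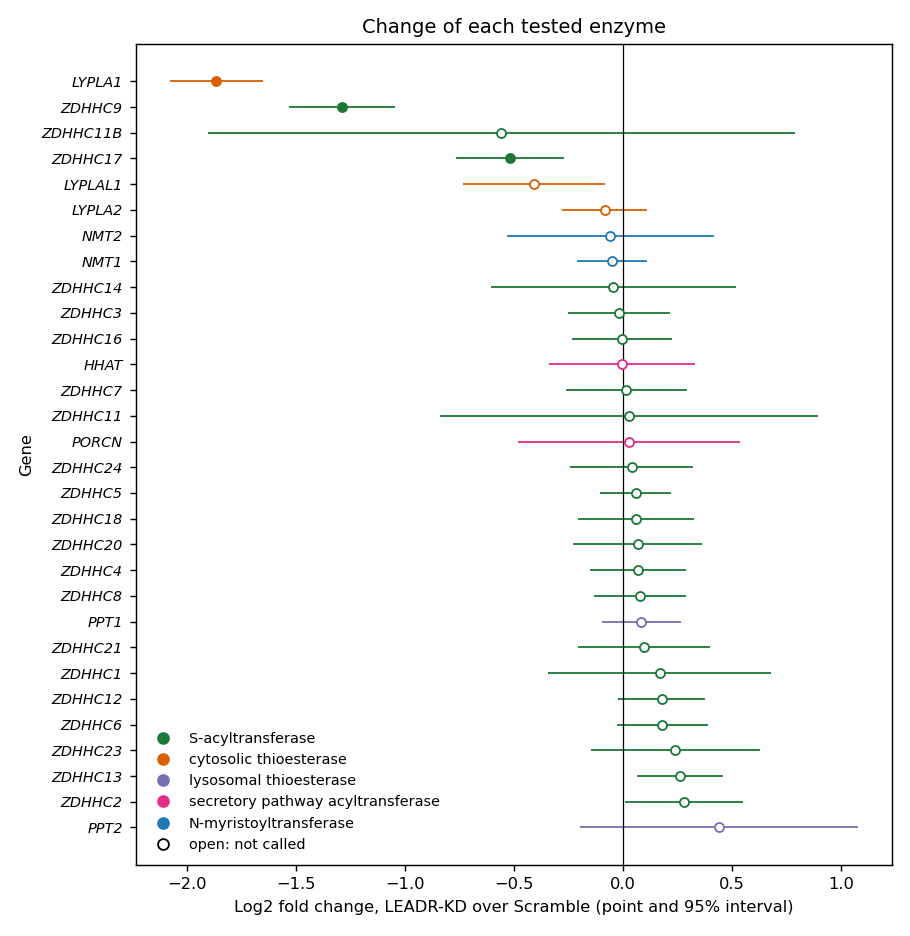
Points give the log2 fold change of LEADR-KD over Scramble for the 30 tested enzymes, coloured by role, with bars for the 95% interval of each gene, unadjusted for the number of genes. Filled points mark the 3 genes called at an adjusted p under 0.05, LYPLA1 at -1.86, ZDHHC9 at -1.29 and ZDHHC17 at -0.52, and the 27 open points range from -0.56 to 0.44.

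The acyltransferases for secreted ligands and the N-myristoyltransferases stayed near their Scramble levels. *HHAT*, which palmitoylates hedgehog ligands, had 141, 186 and 166 counts in Scramble and 153, 156 and 168 in LEADR-KD. Its log2 fold change was -0.01 (95% interval -0.34 to 0.33). *PORCN*, which acylates Wnt ligands, had 131, 89 and 110 counts in Scramble and 104, 93 and 133 in LEADR-KD, with a log2 fold change of 0.03 (95% interval -0.48 to 0.54). Both groups of libraries overlapped for each gene, and the log2 fold change of *ZDHHC17*, -0.52, lay outside both intervals, just beyond the lower end of that of *PORCN*.

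*NMT1* had 3788, 4326 and 3850 counts in Scramble and 3448, 3853 and 3934 in LEADR-KD. With a log2 fold change of -0.05 (95% interval -0.21 to 0.11) it was among the most tightly measured enzymes. *NMT2* had 104, 104 and 71 counts in Scramble and 88, 98 and 74 in LEADR-KD. Its log2 fold change was -0.06, with a wider interval from -0.53 to 0.42. *NMT1* overlaps *PLCD3* and *NMT2* overlaps *RPP38* on the opposite strand, and the libraries were directional, but whether the counting used strand is not stated, so reads of such gene pairs may not have been told apart.

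On the FPKM scale, which allows levels of different genes to be compared, the enzymes spanned a wide range. *PPT1* was the highest, at 65.0 ± 2.81 in Scramble and 69.4 ± 5.32 in LEADR-KD, and its libraries did not overlap with those of the next gene in either group. *ZDHHC20*, whose product is known to palmitoylate EGFR, followed with 42.1 ± 3.797 and 44.4 ± 9.66, and *ZDHHC5*, an enzyme of the plasma membrane, with 39.6 ± 0.77 and 41.5 ± 1.53 (SD, n = 3). *LYPLA1* was at rank 4 in Scramble, at 38.5 ± 4.32, and its libraries overlapped with those of *ZDHHC5*. In LEADR-KD it was at rank 13 with 10.6 ± 0.54, next to *ZDHHC4* at 11.3 ± 0.46, and *ZDHHC9* went from rank 13 to rank 17 and *ZDHHC17* from rank 21 to rank 24.

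The lowest members with counts were *ZDHHC14*, *ZDHHC11* and *ZDHHC11B*, with means over all libraries of 0.388, 0.274 and 0.130 FPKM. *ZDHHC11* and *ZDHHC11B* are near-identical copies that overlap on chromosome 5, so their reads could be split by the counting and their values are uncertain. *ZDHHC11* also overlaps *BRD9* on the same strand, which held 7419 counts over all libraries against 209 for *ZDHHC11*. *ZDHHC11B* had 15, 14 and 3 counts against 4, 7 and 10, and its log2 fold change of -0.56 had a 95% interval from -1.90 to 0.79. Of the 29 pairs of neighbours in the order of levels, 18 overlapped in Scramble and 16 in LEADR-KD, so most of the order between adjacent genes was within the spread of the libraries. In all, 13 of the 33 enzymes were above 10 FPKM as a mean over the 6 libraries and 6 were under 1 FPKM, among them the 3 at 0. The genes lie on 16 chromosomes.

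**Figure D3:**
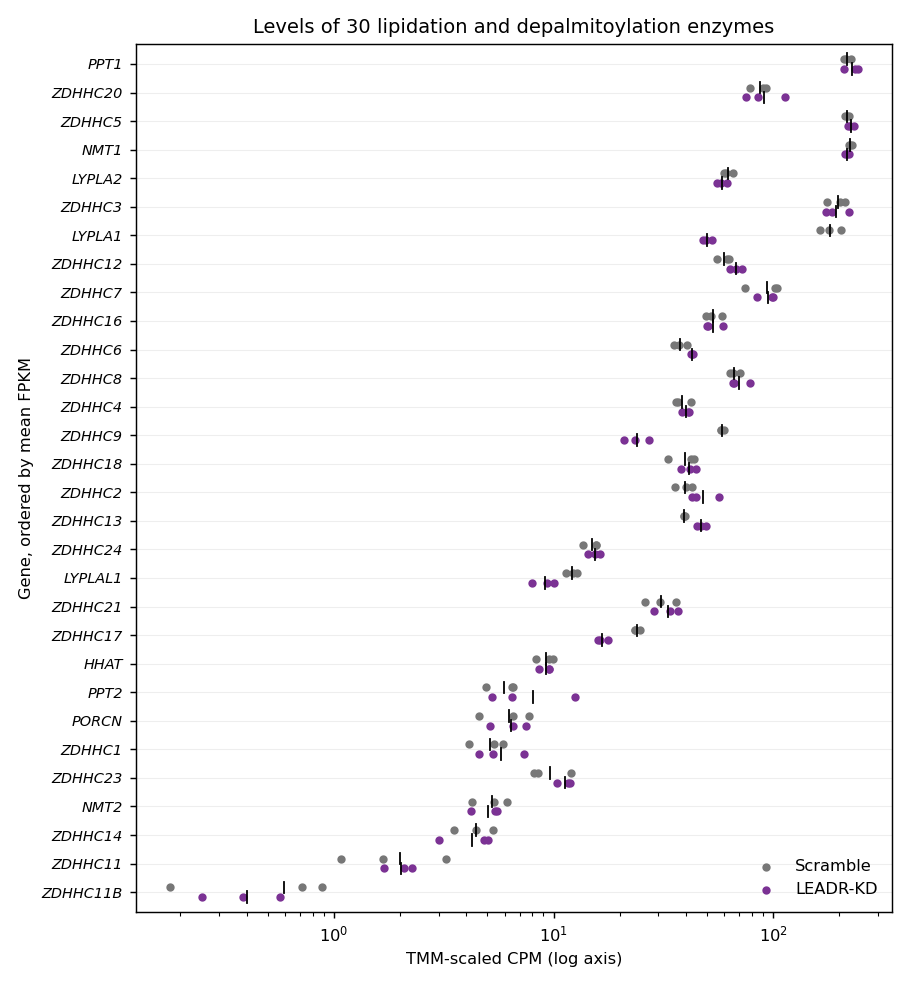
Each row gives an enzyme, ordered by its mean FPKM, with TMM-scaled CPM on a log axis, points for the 3 Scramble libraries (grey) and the 3 LEADR-KD libraries (purple), and black ticks for the group means. The purple points of LYPLA1, from 47.9 to 52.6 CPM, and of ZDHHC9, from 21.0 to 27.2 CPM, are clearly left of their grey points, and most other rows overlap or nearly so.

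The 27 enzymes that were not called had log2 fold changes from -0.56 to 0.44, and 22 of them were within 0.25 of 0. Their SEs ranged from 0.07 to 0.62 with a median of 0.13. The widest intervals belonged to genes of low count such as *ZDHHC11B* and *ZDHHC11*, for which a change as large as that of *ZDHHC17* could not be detected at this depth. In simulated counts for genes of all levels, the steps called 46% of those changed 1.5-fold and 74% of those changed 2-fold. The simulation changed 50 genes per fold size among 13933, a far smaller share than was called in the data. Fewer changed genes make the adjusted p stricter, so these shares need not hold for the real fit.

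The seed matches shown above were then counted in all tested genes. The letters searched on the transcript strand of the longest annotated 3′ UTR were CCCAGT (6-base match, bases 2 to 7 of the listed strand), ACCCAGT (7-base) and ACCCAGTA (8-base), each longer match holding the shorter. Of 12281 tested protein coding genes 12044 had such a region, and so did all 30 tested enzymes. The 6-base match was present in 40.8% of these genes, the 7-base match in 12.6% and the 8-base match in 2.57%. Among the enzymes 18 of 30 held the 6-base match, 5 the 7-base match and 0 the 8-base match. Their 3′ UTRs were longer, with a median of 2051.5 bases against 1536.5 over all these genes, and the part of length was not tested. Over all coding isoforms 6 enzymes held the 7-base match, *ZDHHC24* being added (not called, log2 fold change 0.04).

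All 3 enzymes that were lower held a match. Of all such genes called lower, 60.8% held the 6-base match and 24.7% the 7-base match, against 38.5% and 11.1% of those not called. As *LYPLA1* selected the group, nothing is read from the 3 enzymes as a set. *ZDHHC9* and *ZDHHC17* held the 7-base match, *ZDHHC9* also held further 6-base matches for 3 in all, and *LYPLA1* held a 6-base match only. Of the 27 enzymes not called, 15 held the 6-base match and 3 the 7-base match, which were *NMT1*, *ZDHHC18* and *HHAT*, with log2 fold changes of -0.05, 0.06 and -0.01. *LYPLAL1* held none. Whole transcripts of all coding isoforms, not only their 3′ UTRs, were searched for the longest unbroken stretch that could pair with the listed strand. It was 7 bases for *LYPLA1*, 11 for *ZDHHC9* and 8 for *ZDHHC17*, against a median of 8 over all these genes. For the complement of the listed strand these stretches were 9, 8 and 9 bases, against a median of 8, and 20.9% of all these genes had a stretch of at least 9.

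Across all 12044 genes, 8.55% of those without a match were called lower, 16.6% of those whose longest match was the 6-base one, 23.1% with the 7-base match and 34.2% with the 8-base match. The shares called higher were 15.6%, 12.3%, 11.6% and 7.42% in the same order. The median length of the 3′ UTR rose along these classes, from 979 to 2438, 3138.5 and 3943 bases, and the part of length in these shares was not tested. Matches to the complement of the listed strand were searched after the data had been seen. There 12.4% of genes with none were lower and 14.7%, 11.8% and 18.8% of those with the 6-base, 7-base and 8-base match. Called higher were 13.2%, 16.5%, 17.3% and 16.1% in the same order, with median UTR lengths of 1137, 3119.5, 3513 and 3883 bases. None of the 3 lowered enzymes held such a match, where 8 of the 30 enzymes and 25.3% of all these genes held the 6-base one. Whether the siRNA acted on any of these transcripts was not tested, and no second siRNA against *LEADR* is analysed here.

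**Figure D4:**
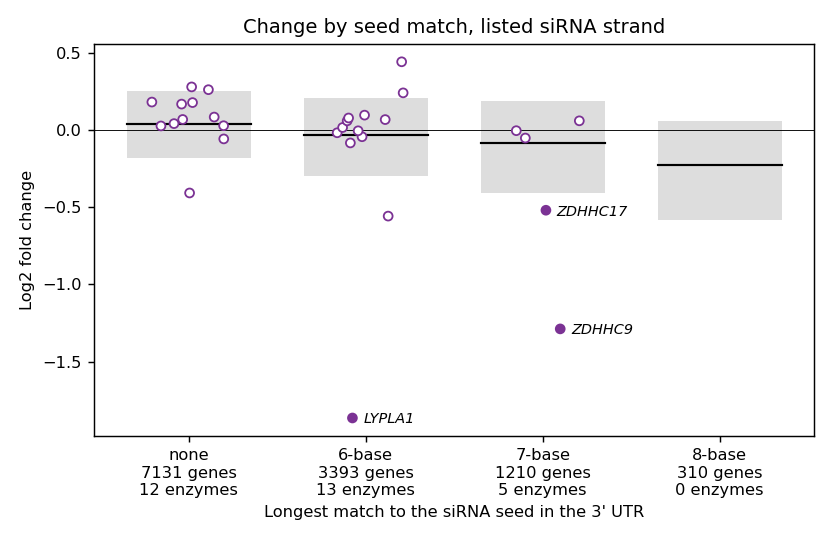
Genes are split by their longest match to the seed of the listed siRNA strand in the 3′ UTR, with grey boxes for the middle quartiles and black lines for the medians of the log2 fold change over all tested genes, and points for the enzymes, filled where called. LYPLA1 is in the 6-base class, ZDHHC9 and ZDHHC17 are in the 7-base class beside 3 enzymes near 0, and the median over all genes goes from 0.04 without a match to -0.22 with the 8-base match.

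Genes that work next to these enzymes were read from 8 lists, of which 75 rows were tested, 15 were higher and 16 were lower at an adjusted p under 0.05 in edgeR, beside 12.2% and 12.1% of all genes. The other thioesterases, *ABHD17A*, *ABHD17B*, *ABHD17C* and *ABHD10*, which act on overlapping substrates with LYPLA1 or in mitochondria, were not called, with log2 fold changes between 0.08 and 0.16. *GOLGA7*, the partner of ZDHHC9, had 1287, 1613 and 1196 counts against 1171, 1253 and 1075 and was not called (log2 fold change -0.18, SE 0.10). *GOLGA7B*, a partner of ZDHHC5, was higher from very few counts (3, 4 and 10 against 23, 12 and 26; ENSG00000155265), and its call was lost on leaving out Scramble 1 or 2 or LEADR-KD 1 or 3 (log2 fold change 1.58, 1.60, 1.71 and 1.67, against 1.86 with all). Without Scramble 3 it was 2.59, and in limma on log2(FPKM + 1), a scale that understates the change of low genes, it was 0.30. The related membrane-bound acyltransferases of phospholipids *MBOAT1* (log2 fold change 0.79, SE 0.12), *MBOAT2* (0.51, SE 0.14) and *MBOAT7* (0.39, SE 0.08) rose, 3 of 4 tested, while *LPCAT3* had -0.20 and was not called. The call of *MBOAT2* was lost without Scramble 3 (0.38), LEADR-KD 2 (0.50) or LEADR-KD 3 (0.51).

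Of the ligands that HHAT and PORCN modify, 4 of 13 tested genes were lower and 0 were higher, beside 12.1% and 12.2% of all tested genes. *SHH* had 1988, 2449 and 1809 counts in Scramble and 918, 818 and 870 in LEADR-KD. Its log2 fold change was -1.21 (SE 0.11, adjusted p = 1.6e-05 in edgeR). *WNT11* had 263, 370 and 261 counts against 82, 91 and 99 (-1.67, SE 0.16) and *WNT5A* 4223, 4299 and 4060 against 2001, 2345 and 2401 (-0.87, SE 0.08), and in neither did the groups overlap. *IHH* had 30, 51 and 62 counts against 0, 5 and 2, and its log2 fold change of -4.26 ranged from -5.34 without LEADR-KD 2 to -1.11 in limma on log2(FPKM + 1). The transcripts of these 4 ligands were lower, 9 of the 13 tested were not called, and *HHAT* and *PORCN* had log2 fold changes of -0.01 and 0.03. The most abundant ligand not called was *WNT7B* (-0.27, SE 0.09).

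Proteins that carry palmitate or myristate went both ways, with 9 of 30 tested genes higher, 8 lower and 13 not called. Over all tested genes 12.2% were higher and 12.1% were lower. The caveolin genes *CAV2* (129, 148 and 110 against 346, 393 and 459 counts, log2 fold change 1.67, SE 0.14) and *CAV1* (57, 92 and 100 against 130, 124 and 221, log2 fold change 0.97, SE 0.27) rose, as did *HRAS* (0.50, SE 0.12) and *RHOB* (0.46, SE 0.12), which encode small GTPases. The call of *CAV1* was lost without Scramble 1 (0.78), Scramble 2 (0.97) or LEADR-KD 3 (0.68), and that of *RHOB* without Scramble 1 (0.38) or LEADR-KD 2 (0.31). The myristoylated actin regulators *MARCKSL1* (-1.10, SE 0.09) and *MARCKS* (-0.58, SE 0.09), the kinase gene *YES1* (-0.56, SE 0.10) and the GTPase gene *ARF6* (-0.55, SE 0.08) fell. *NRAS*, a substrate of ZDHHC9 like *HRAS*, was not called, with a log2 fold change of 0.12 (SE 0.09).

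In prenylation, the other lipid modification of RAS proteins, 10 genes were tested. *ZMPSTE24*, a protease that processes prelamin A, fell from 155 ± 11.0 to 100.1 ± 7.28 CPM (SD, n = 3) with a log2 fold change of -0.63 (SE 0.09), and *CHML*, a Rab escort protein gene, fell by 0.41 on the log2 scale (SE 0.10). *ICMT*, which methylates prenylated cysteines, was higher (0.34, SE 0.09), and the prenyltransferase genes were not called. Of the genes for acyl-CoA supply, *ACSL3* was higher (0.25, SE 0.08), *ACACA* was lower (-0.37, SE 0.10) and 5 of 7 tested were not called. Of 4 tested genes listed for methionine removal or myristoyl-CoA binding, only the methionine aminopeptidase gene *METAP1D* was called (-0.50, SE 0.17). *METAP1* (-0.15) and *METAP2* (0.11) were not called. The calls of *ACSL3* and *METAP1D* were lost in most of the alternatives tried, and that of *ICMT* in 7 of 16, among them leaving out Scramble 1, Scramble 3, LEADR-KD 1 or LEADR-KD 2 (0.28, 0.30, 0.30 and 0.35). *ACSL3* lost it whichever library was left out (0.21 to 0.30), and *METAP1D* kept it, of these, only without LEADR-KD 3. The call of *CHML* was lost without LEADR-KD 2 (-0.39) or LEADR-KD 3 (-0.34), and that of *ACACA* without Scramble 1 (-0.27) or LEADR-KD 3 (-0.34).

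**Figure D5:**
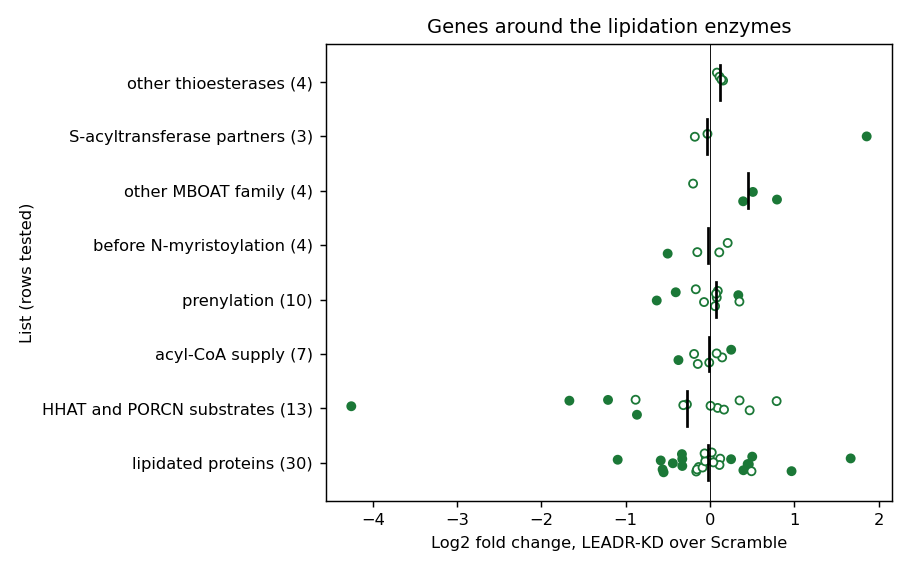
Each point is a tested gene of a list around the enzymes, placed by its log2 fold change of LEADR-KD over Scramble, filled where called at an adjusted p under 0.05, with a black bar for the median of the list and the number tested in parentheses. The leftmost points are HHAT and PORCN substrates, IHH at -4.26, WNT11 at -1.67 and SHH at -1.21, and the rightmost are GOLGA7B at 1.86 and CAV2 at 1.67.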

How the data were processed

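Poly(A) RNA of RT4 cells was measured in 3 Scramble and 3 LEADR-KD libraries, grouped by the submitters' labels. The authors deposited raw counts per gene (the processing notes name HISAT2 2.0.5, featureCounts 1.5.0-p3 and hg19, the paper's methods name Salmon) and FPKM values, scaled by the authors for gene length and library. A deposited table of the authors' own comparison by DESeq2 1.20.0 (fold changes and p-values) was not used. Genes were kept by filterByExpr (minimum count 10), scaled by TMM and tested with edgeR 4.0.16 (glmQLFit, glmQLFTest, no covariate) in R 4.3.3, with Benjamini-Hochberg adjustment over 14178 genes. An SE is the log2 fold change divided by the square root of F. The biological coefficient of variation was 12.6%. The steps were tested on simulated counts. The members and lists were chosen with earlier results of these data known. Named were all called members, all members outside the ZDHHC family, the 3 highest and 3 lowest by FPKM, and up to 4 called genes per list and direction; *ZDHHC2*, *ZDHHC6*, *ZDHHC12*, *ZDHHC13* and some uncalled list genes were added after their values were seen. Alternatives were DESeq2 1.42.0, other size factors, library totals, other count filters, leaving out each library, a replicate block and limma 3.58.1 on log2(FPKM + 1) or log2(FPKM + 0.1). UTRs were taken from GENCODE v44lift37. Protein sequences were not used here.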

Additional observations from a re-analysis of the deposited data

How the results depend on the processing

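Over the 16 alternatives the log2 fold change of *LYPLA1* ranged from -1.94 to -1.76, which restates the fall that selected the group and is no independent support for it. *ZDHHC9* ranged from -1.39 to -1.12, called in each, and *ZDHHC17* was called in all but limma on log2(FPKM + 1) without a filter. No value of an enzyme or a list gene that was called turned its direction. Leaving out both libraries numbered 1, which was chosen after seeing the data, left 3 enzymes lower and 0 higher, and list genes at 10 higher and 15 lower. Over all genes, library totals in place of TMM gave 1085 higher in place of 1736, limma without a filter gave 915 higher and 854 lower, and leaving out a library gave 1188 to 1457 higher and 1142 to 1472 lower (1719 in full), the lowest of both without LEADR-KD 2. For list genes these were 5 higher and 9 lower with limma without a filter and 8 to 12 higher on leaving out a library, the fewest without Scramble 1. The median of the enzymes was -0.000818 with library totals and 0.001721 to 0.0746 on leaving out a library. The cause of these shifts was not tested.

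Same-numbered libraries did not deviate together in every pair (correlations 0.324, -0.00732 and 0.392), and Scramble 2 correlated best with LEADR-KD 1. The values for the libraries numbered 1 and 3 were the highest of all pairs. The main fit did not pair the libraries, but whether the numbers mark pairs is not settled by these values. With the replicate block 4 enzymes were lower, *LYPLAL1* being added (-0.41), and 2 were higher, *ZDHHC2* (0.27) and *ZDHHC13* (0.26). Whether *LYPLAL1*, *ZDHHC2* and *ZDHHC13* were called thus depended on this choice. Calls over all genes rose as well with the block, from 1719 to 2365 lower and from 1736 to 2489 higher. Depth limited the enzymes of low count, *ZDHHC11B* and *ZDHHC11* having the widest intervals.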
